A study of Drosophila melanogaster and Drosophila yakuba and Drosophila virilis with 31 samples.

Results

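The segment polarity genes described here were 8 genes with a row under their own name in the table of transcript abundances, out of 10 genes looked for and out of 5993 genes in the table. They were engrailed (en), gooseberry (gsb), wingless (wg), hedgehog (hh), patched (ptc), smoothened (smo), naked cuticle (nkd) and armadillo (arm). The genes invected (inv) and cubitus interruptus (ci) were not analysed here. The study sequenced mRNA of single individuals of D. melanogaster (mel, strain Oregon-R), D. yakuba (yak, Tai18E2), D. pseudoobscura (pse, MV2-25) and D. virilis (vir, V46), none of which carried a treatment or an engineered allele according to the sources used here. Embryos were picked by morphology at the end of the blastoderm stage, after cellularization and before gastrulation, and were sexed by PCR on their own DNA. There were 3 female and 3 male embryos in mel and in yak, 2 females and 3 males in pse, and 3 females and 2 males in vir, for 22 embryos in all. Unfertilized eggs, newly laid, gave 7 libraries, a single one from pse and 2 from each of the other species. An egg carries what the mother deposited and no zygotic transcripts, so it is the background for every embryo value. The embryos came from many mothers in each species, but each species was represented by a single strain, so a species difference cannot be told apart from a strain difference.

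Segment polarity genes give each segment of the fly body its anterior and posterior sides. The pair-rule transcription factors switch on stripes of en and wg at the end of the blastoderm stage. Cells with Engrailed protein then secrete Hedgehog, whose receptor Patched otherwise holds the membrane protein Smoothened inactive, and the neighbouring cells secrete Wingless, which acts through Armadillo, the fly beta-catenin. Each of these stripes is only a few cells wide at this stage, and a value for a whole embryo cannot tell fewer expressing cells from less RNA per cell.

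In the FlyBase release 5 coordinates of the mel genome, the transcription factor gene en lies at 2R:7411508-7415715 and gsb, which encodes a paired-domain transcription factor, at 2R:20949501-20952166. The ligand genes are wg, at 2L:7307160-7316255, and hh, at 3R:18953424-18967881. The gene of the Hedgehog receptor, ptc, lies at 2R:4537139-4552728, and smo at 2L:277587-282167. The gene nkd, whose product dampens Wingless signalling, lies at 3L:18996831-19038431, and arm lies on the X chromosome at 1785433 to 1794673. Chromosomes of the other species matter for 2 of the members. In pse, where the arm named 3L in mel has become part of the X chromosome, nkd was placed on the X arm XR, and arm was on an X arm in mel, yak and pse. The deposited class of origin, which the authors assigned from egg and embryo levels, was zygotic for en, wg, hh, gsb and nkd in all 4 species. The class of ptc was zygotic except in pse, where it was maternal and zygotic. That of smo was maternal and zygotic in all 4 species. That of arm was maternal and zygotic in mel and maternal in the other species.

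Library checks came from gene lists. Summed abundance of 11 maternal markers was 3180 to 4191 FPKM in the eggs and 821 to 1435 FPKM in the embryos, and that of 10 early zygotic and cellularization markers was 12.99 to 65.3 FPKM in the eggs, nearly all of it slam, and 557 to 945 FPKM in the embryos. The female-specific splicing regulator Sxl separated the sexes without overlap in each species, and so did msl-2, which was higher in males. Of 13 markers of blood cells, fat body, gut and ovarian follicle cells, only srp and Yp3 were in the table. Yp3, a yolk protein gene of adult tissues, stayed at or below 0.272 FPKM in every egg and 6.66 FPKM in every embryo, while srp, which the blastoderm itself expresses, was at 45.2 to 173 FPKM in embryos. The tables hold normalized abundances with no counts, so the sequencing depth behind each value is unknown.

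Transcripts of en, gsb, wg, hh and nkd were all but absent from the eggs of every species and were present in all 22 embryos. gsb was listed at 0 in 7 of 7 eggs, en and hh in 6 of 7, and wg in 5 of 7. The highest egg value was 0.0247 FPKM for en, 0.0371 FPKM for hh and 0.0341 FPKM for wg. For nkd the egg values reached 0.174 FPKM at most. In the embryos, by contrast, en ranged from 1.00 to 9.41 FPKM with a median of 3.91 FPKM. hh ranged from 1.64 to 10.4 FPKM, with a median of 6.25 FPKM. gsb ranged from 1.88 to 28.0 FPKM, with a median of 10.2 FPKM. These 3 genes were the least abundant members, and wg was higher at 9.19 to 33.5 FPKM with a median of 22.7 FPKM. nkd reached 53.5 to 137 FPKM, with a median of 95.2 FPKM. No fold change is given against eggs at 0.

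**Figure D1:**
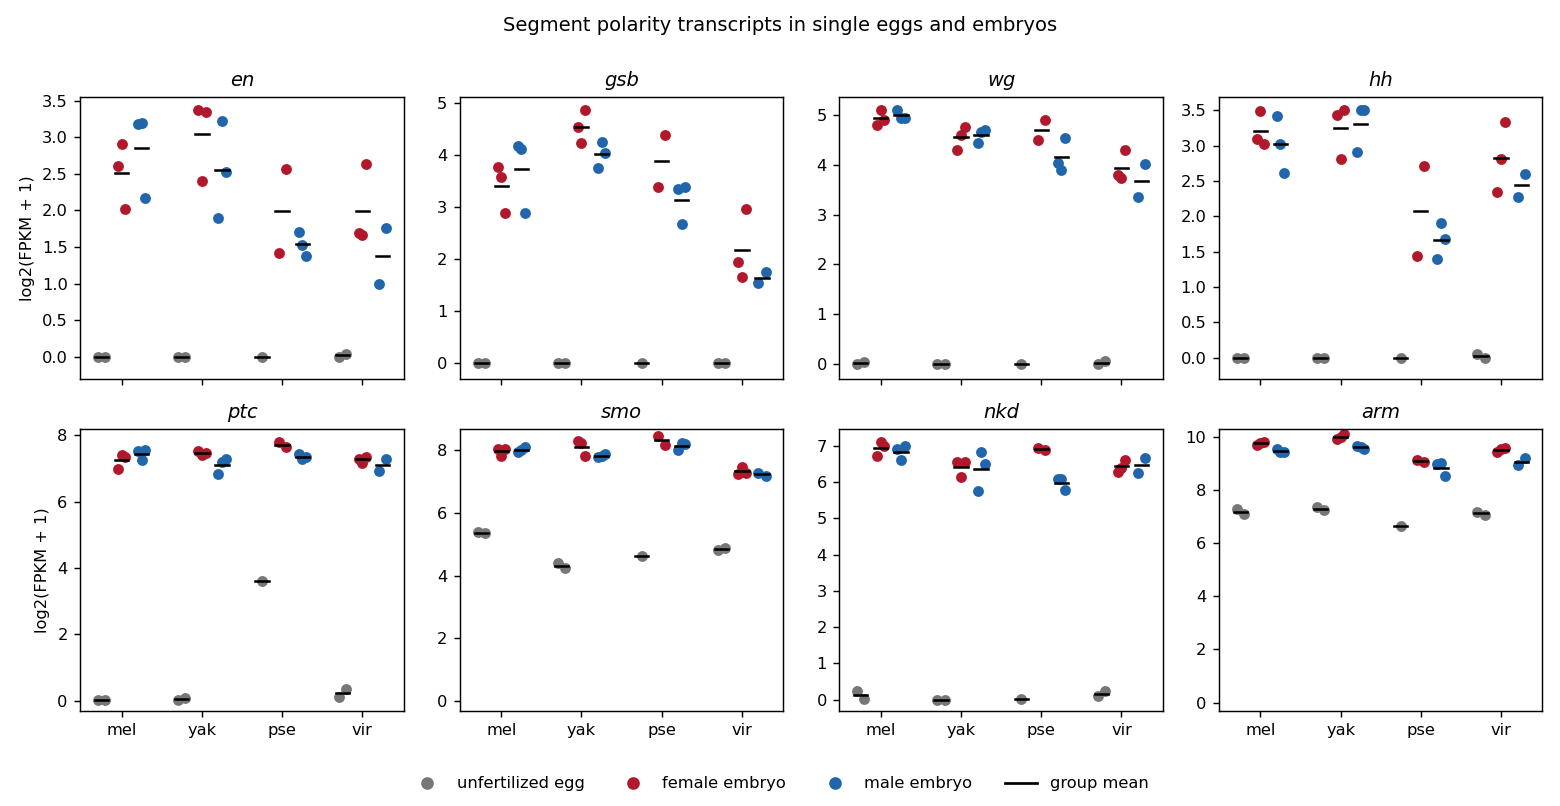
Each point is the level of a segment polarity gene in a single egg or embryo, as log2(FPKM + 1), by species, with unfertilized eggs in grey, female embryos in red, male embryos in blue and a bar at each group mean. Eggs of all species lie at or near 0 for en, gsb, wg, hh and nkd, ptc is above 0 in the pse egg at 11.2 FPKM, and smo and arm are present in all eggs.

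The Hedgehog receptor gene ptc was abundant in embryos, at 114 to 223 FPKM, but its egg values differed between species. In the eggs of mel they were 0.0134 and 0.0173 FPKM, in yak 0.0123 and 0.0595 FPKM, and in vir 0.0878 and 0.267 FPKM. The single pse egg had 11.2 FPKM, far above all the others. Across the 6 normalizations that the authors deposited, ptc in the pse egg lay between 8.06 and 17.9 FPKM, and no other egg exceeded 1.18 FPKM. Apart from slam, which all eggs held, the early zygotic and cellularization markers summed to 0.0423 FPKM in the pse egg and to 0 to 0.218 FPKM in the other 6, and en, gsb, wg and hh were listed at 0 in it. Since pse had only this egg, its ptc level has no replicate.

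The remaining members, smo and arm, were already present in eggs. smo was at 40.4 and 39.7 FPKM in the eggs of mel, at 20.2 and 17.7 FPKM in yak, at 27.2 and 28.4 FPKM in vir and at 23.3 FPKM in the pse egg. arm was at 155 and 136 FPKM in mel, at 165 and 151 FPKM in yak, at 144 and 134 FPKM in vir and at 99.5 FPKM in the pse egg. All embryos exceeded all eggs for both genes, with smo at 144 to 350 FPKM and arm at 372 to 1119 FPKM. The ratio of the embryo mean to the egg mean for smo was 6.30 for mel, 13.2 for yak, 12.6 for pse and 5.56 for vir. The corresponding ratio for arm was 5.42, 5.75, 5.0 and 4.72 in the same order.

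All 8 members rose from egg to embryo in all 4 species. This comparison sets normalized abundance in embryos against that in eggs. It was made with limma on log2(FPKM + 1) across all genes with a group mean above 1 FPKM in at least 1 group. Benjamini-Hochberg adjustment was used with a threshold of 0.05. The genes en, gsb, wg, hh and nkd, below 1 FPKM in all eggs, passed this filter only through the embryos. Their rise was therefore all but given in advance. For transcripts already present in eggs, a rise in normalized abundance does not by itself show zygotic transcription. The deposited class of arm, for instance, was maternal in yak, pse and vir, although arm rose there too. Of all 5983 genes tested, 44.2% were higher in embryos for mel, 38.6% for yak, 35.4% for pse and 44.4% for vir. The differences on the log2 scale in mel ran from 2.43 ± 0.11 (SE) for arm to 7.33 ± 0.13 for ptc. In pse the smallest was 1.77 ± 0.50 for en, with an adjusted p of 0.00351, a call that was lost with a pseudocount of 5 (0.58). The replicates are separate individuals.

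Egg levels of smo differed between species whereas those of the other members did not pass the test. smo was lower in the eggs of yak than of mel, with a log2 difference of -1.04 ± 0.14 (adjusted p = 3.16e-06, limma), and the groups of 2 eggs each did not overlap. It was also lower in vir than in mel, with a log2 difference of -0.51 ± 0.14 (adjusted p = 0.00323), and higher in vir than in yak by 0.53 ± 0.14 (adjusted p = 0.00215). The difference between vir and mel changed sign with the median normalization (0.036), and that between vir and yak was no longer called without normalization after eXpress (0.30). Among all genes, 30.5% differed between the eggs of yak and mel, 53.2% between vir and mel and 55.3% between vir and yak. The pse egg entered no such test.

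The size of the rise differed between species for smo, wg and gsb. smo rose more in yak than in mel, by 1.02 ± 0.16 on the log2 scale (adjusted p = 1.67e-05, limma), and less in vir than in yak, with a difference of -1.22 ± 0.16 (adjusted p = 8.28e-07). Embryo means of smo were alike in yak and mel, at 250 and 252 FPKM. The difference in rise between yak and mel was thus that of their egg means, 18.9 and 40.0 FPKM. The rise of wg was smaller in vir than in mel (-1.16 ± 0.28, adjusted p = 0.000976) and than in yak (-0.79 ± 0.28, adjusted p = 0.0174), the latter no longer called without male 2 of vir (-0.63) or without egg 2 of vir (-0.77). gsb showed the largest differences among the members, with -1.65 ± 0.50 between vir and mel (adjusted p = 0.00633) and -2.37 ± 0.50 between vir and yak (adjusted p = 0.000284). All 7 eggs were listed at 0 for gsb, so its values repeat the embryo differences given below and add no separate result. The same nearly holds for wg, whose highest egg value was 0.0341 FPKM. For both genes any effect of the gene annotations of the species remains in these values. For en the corresponding values, which did not pass, were -1.01 ± 0.53 (adjusted p = 0.101) and -1.13 ± 0.53 (adjusted p = 0.0694). The background for such differences was high, with 47.0% of all genes called between yak and mel, 65.9% between vir and mel and 64.6% between vir and yak.

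Embryo levels were next compared between species, which also compares their gene annotations, since each species was quantified on its own transcript models. Of the 8 members, 4 differed between yak and mel, and 6 in each of the other 5 pairs of species. These shares do not stand apart from all genes, of which 68.5% differed between yak and mel, 78.6% between pse and mel, 81.2% between vir and mel, 75.4% between pse and yak, 80.3% between vir and yak and 78.0% between vir and pse.

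The transcription factor genes en and gsb were low in vir. In mel, en ranged over 3.05 to 8.17 FPKM with a median of 5.79 FPKM, and in yak over 2.71 to 9.41 FPKM with a median of 6.55 FPKM. In pse, en was at 1.68 and 4.91 FPKM in females and at 2.27, 1.88 and 1.60 FPKM in males. In vir, it was at 2.24, 2.16 and 5.23 FPKM in females and at 1.00 and 2.37 FPKM in males. All embryos but female 2 of pse and female 3 of vir were below the lowest mel embryo in these 2 species. The difference from mel was -0.91 ± 0.30 on the log2 scale in pse (adjusted p = 0.00992, limma) and -0.99 ± 0.30 in vir (adjusted p = 0.00546). The value for pse was no longer called without female 1 of pse (-0.63). Between vir and pse the difference was -0.08 (95% interval -0.75 to 0.59).

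The contrast was sharper for gsb. Its levels in vir were 2.81, 2.13 and 6.80 FPKM in females and 1.88 and 2.35 FPKM in males. In pse they were 9.40 and 19.9 FPKM in females and 9.20, 5.32 and 9.37 FPKM in males. The mel embryos ranged over 6.33 to 16.8 FPKM with a median of 11.7 FPKM, and the yak embryos over 12.4 to 28.0 FPKM with a median of 17.8 FPKM. Only female 3 of vir reached the range of mel. gsb was lower in vir than in each other species, with a log2 difference of -1.65 ± 0.28 from mel (adjusted p = 2.46e-05, limma), -2.37 ± 0.28 from yak (adjusted p = 2.55e-07) and -1.60 ± 0.30 from pse (adjusted p = 6.94e-05). It was higher in yak than in mel by 0.71 ± 0.27 (adjusted p = 0.0232), a call that was lost when any of 4 libraries was left out, namely male 3 or female 3 of mel and male 2 or female 3 of yak (0.50 to 0.65).

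**Figure D2:**
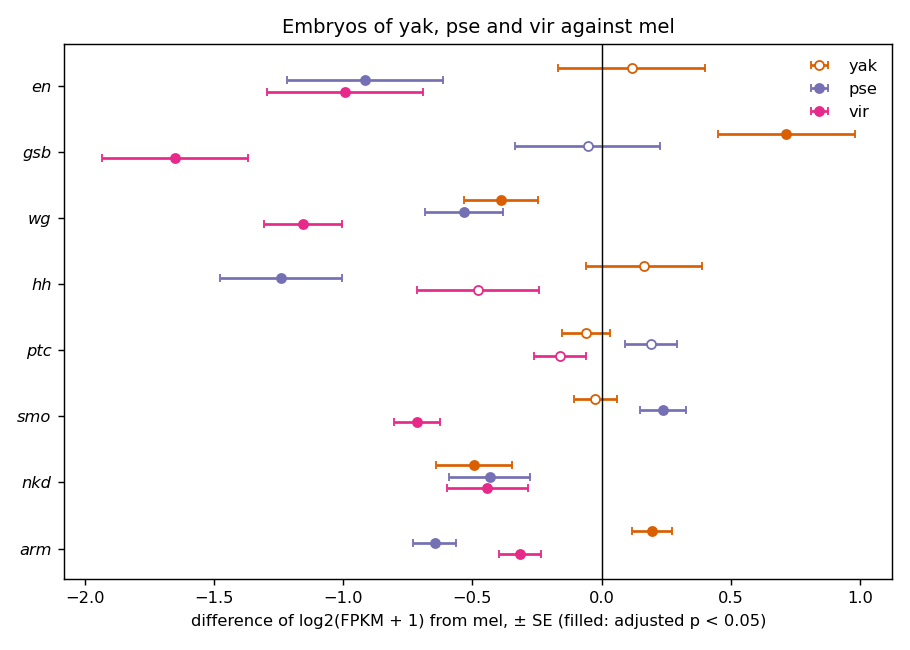
Points show the difference in embryo level of each segment polarity gene between yak, pse or vir and mel on the log2(FPKM + 1) scale, with bars for the standard error, and are filled where the adjusted p from limma was below 0.05. The farthest point from 0 is gsb in vir at -1.65, followed by hh in pse at -1.24 and wg in vir at -1.15, while ptc lies within 0.19 of 0 in each species.

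The ligand genes had different orders of species. wg was highest in mel, at 26.9 to 33.5 FPKM with a median of 29.7 FPKM, and ranged over 18.7 to 26.3 FPKM in yak with a median of 23.7 FPKM. In pse it was at 21.7 and 29.1 FPKM in females and at 15.4, 13.9 and 22.3 FPKM in males. In vir it was at 12.8, 12.3 and 18.6 FPKM in females and at 9.19 and 15.1 FPKM in males. The vir embryos lay wholly below the mel embryos, with a log2 difference of -1.15 ± 0.15 (adjusted p = 9.29e-07, limma), and yak and pse, between them, did not differ beyond their spread (-0.15 ± 0.15, adjusted p = 0.4). hh, by contrast, was lowest in pse, at 1.72 and 5.57 FPKM in females and at 1.64, 2.76 and 2.19 FPKM in males. In vir it was at 4.06, 6.01 and 9.09 FPKM in females and at 3.84 and 5.05 FPKM in males. It ranged over 5.14 to 10.3 FPKM in mel and over 6.0 to 10.4 FPKM in yak, with medians of 7.34 and 10.05 FPKM. The log2 difference between pse and mel was -1.24 ± 0.24 (adjusted p = 8.91e-05, limma), that between vir and pse 0.76 ± 0.25 (adjusted p = 0.00933), and mel and yak did not differ beyond their spread (0.16 ± 0.22). The difference between vir and pse was no longer called without female 1 of pse (0.44).

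Of the receptor component genes, ptc was the steadier between species. The species means of ptc lay between 148 FPKM in vir and 182 FPKM in pse, and the ranges of all 4 species overlapped. Its differences from mel were -0.06 ± 0.09 (yak), 0.19 ± 0.10 (pse) and -0.16 ± 0.10 (vir), none of which passed. It was higher in pse than in yak by 0.25 ± 0.10 (adjusted p = 0.0285, limma) and lower in vir than in pse (-0.35 ± 0.10, adjusted p = 0.00493), and both calls were lost with the 95th-percentile and quantile normalizations and when the 2 libraries that the study removed were returned. The first was also lost without normalization after eXpress and without male 1 or female 2 of yak or male 1 or female 1 of pse, and over all its lost settings it lay between 0.08 and 0.23. For smo the vir embryos stood apart, at 150, 173 and 154 FPKM in females and 152 and 144 FPKM in males, below all embryos of the other species. These ranged over 224 to 272 FPKM in mel, 218 to 311 FPKM in yak and 256 to 350 FPKM in pse. The log2 difference between vir and mel was -0.71 ± 0.09 (adjusted p = 4.27e-07, limma).

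Among the genes of Wingless transduction, nkd was higher in mel, at 96.8 to 137 FPKM with a median of 122 FPKM, than in the other species, whose means were 85.5 FPKM in yak, 85.8 FPKM in pse and 86.6 FPKM in vir. The pse mean pools females at 123 and 118 FPKM, within the mel range, with males at 67.1, 66.8 and 54.0 FPKM, all below it. The log2 difference from mel was -0.49 ± 0.15 (yak), -0.43 ± 0.16 (pse) and -0.44 ± 0.16 (vir), each called. The value for pse was no longer called with the median normalization or without female 2 of pse (-0.42 to -0.33), nor that for vir with the quantile normalization or without male 2 of vir (-0.34 to -0.32). arm was the most abundant member in every species, with mean levels of 789 ± 90.1 FPKM for mel (SD, n = 6), 907 ± 147 FPKM for yak (n = 6), 497 ± 72.8 FPKM for pse (n = 5) and 658 ± 116 FPKM for vir (n = 5). It was lower in pse than in mel, with a log2 difference of -0.65 ± 0.08 (adjusted p = 6.88e-07, limma), and all pse embryos were below all mel embryos.

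Genes that mark the progress of cellularization differed between species in both directions. Of 10 measured early zygotic and cellularization markers, 3 were higher and 4 lower in vir than in mel. These counts do not stand apart from all genes, of which 81.2% were called between vir and mel in either direction. slam, which is needed for membrane growth during cellularization, was at 172 to 263 FPKM in vir, 25.05 to 78.4 FPKM in pse, 12.7 to 87.9 FPKM in yak and 6.07 to 47.5 FPKM in mel. It was higher in vir than in mel by 3.65 ± 0.47 on the log2 scale (adjusted p = 6.48e-07, limma), and bnk, which restrains actin rings in cellularization, by 2.10 ± 0.31 (adjusted p = 4.02e-06). nullo, another cellularization gene, was lower in vir, at 0 to 0.373 FPKM against 0.959 to 1.98 FPKM in mel (-0.95 ± 0.17, adjusted p = 3.85e-05). Their part in the species differences of the segment polarity genes was not tested.

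Few sex effects of the members passed the test. The median difference between females and males over the 8 members was -0.05 (mel), 0.32 (yak), 0.44 (pse) and 0.33 (vir) on the log2 scale, against 0.00305 to 0.0228 over all genes. A female embryo has 2 copies of each X-linked gene and a male has 1, and dosage compensation is not complete at this stage, so X-linked members are those the comparison bears on. Of all 5856 genes tested in embryos, 3.48% differed between the sexes for mel, 3.09% for yak, 6.35% for pse and 3.11% for vir. Only nkd in pse was called among the members, and by limma no member was called in the other species, where 1 member in mel, 3 in yak and 1 in vir had an unadjusted p under 0.05. Some effects that did not pass were nonetheless large, with ratios of the female to the male mean of 1.84 (pse) and 1.85 (vir) for gsb, 1.72 (pse) and 1.90 (vir) for en, and 1.66 for hh in pse. These ratios lean on female 2 of pse and female 3 of vir, the highest embryos of their species for en, gsb and hh. In mel the ratios went the other way for en (0.74) and gsb (0.75). All females also exceeded all males for ptc in yak and pse and for gsb in pse. For gsb the nearest values were 9.40 and 9.37 FPKM. The pse female that the study removed, at 103 FPKM of ptc and 6.11 FPKM of gsb, would undo both separations in pse. How many of all genes separate the sexes in this way was not counted.

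nkd was at 123 and 118 FPKM in the pse females and at 67.1, 66.8 and 54.0 FPKM in the pse males. Both females exceeded all 3 males by a wide margin. The difference was 0.94 ± 0.23 on the log2 scale (adjusted p = 0.0189, limma). It was no longer called when male 3, female 1 or female 2 of pse was left out, with the quantile normalization or when the pse female that the study removed was returned (0.69 to 0.97). In the species where nkd is autosomal the sexes overlapped, with differences of 0.09 ± 0.21 for mel, 0.05 ± 0.21 for yak and -0.02 ± 0.23 for vir. The sex effect of nkd in pse exceeded the mean of these 3 by 0.90 ± 0.26, with an adjusted p of 0.0893 (2.17% of all genes were called in this contrast), so that the difference between species did not pass the test.

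As a description, the effect of nkd in pse was at the 97.2 percentile of the 1104 tested genes whose mel ortholog lies on 3L, where the median effect was 0.22 and 15.1% of genes were called higher in females. In mel, yak and vir, 0.181%, 0% and 0.362% of the same genes were called higher in females. Of the later-stage markers, Mkp3, a phosphatase gene that is likewise on XR in pse, was at 68.8 and 61.5 FPKM in the pse females. Its levels in the pse males were 33.4, 33.4 and 41.9 FPKM. The summed level of the 5 measured genes among 8 later-stage markers was 148 and 154 FPKM in the pse females and 93.6 to 100.3 FPKM in the males. All females also exceeded all males in this sum in mel, at 194 to 241 FPKM against 163 to 191 FPKM, and in yak, at 203 to 252 FPKM against 129 to 186 FPKM. In vir the sexes overlapped in this sum, at 133 to 164 FPKM in females and 125 and 145 FPKM in males. Of these 5 genes, 2 were called higher in females in pse (Mkp3 and l(1)sc), 2 in yak (ac and l(1)sc) and 0 in mel and vir. The genes fog, ac and l(1)sc are on the X, so in pse all but Antp are X-linked. Antp, on an autosome in mel and pse, had a mean sex effect over the 4 species of -0.11 ± 0.15, which was not called. The part of stage in the nkd difference was not tested.

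**Figure D3:**
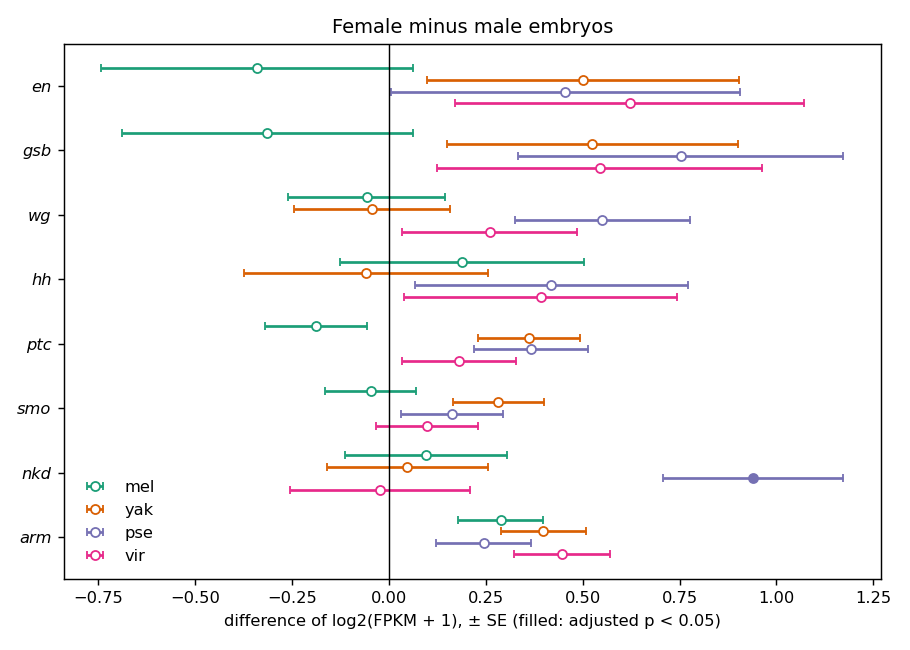
Points show the difference between female and male embryos for each segment polarity gene and species on the log2(FPKM + 1) scale, with bars for the standard error, and are filled where the adjusted p from limma was below 0.05. nkd in pse, at 0.94, is the only filled point, and arm lies to the right of 0 in all 4 species, at 0.24 to 0.45.

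The X-linked gene arm was higher in every female than in every male of its own species. Its levels in mel were 835, 872 and 895 FPKM in females and 742, 696 and 692 FPKM in males. In yak they were 961, 1017 and 1119 FPKM in females and 810, 780 and 755 FPKM in males. In pse the females had 562 and 529 FPKM and the males 510.5, 512 and 372 FPKM. The sexes were thus separated in each species, but narrowly in pse. The pse female that the study removed was at 505 FPKM, below the males at 510.5 and 512 FPKM. In vir the females had 693, 742 and 773 FPKM and the males 492 and 592 FPKM. The log2 differences were 0.29 ± 0.11 for mel, 0.40 ± 0.11 for yak, 0.24 ± 0.12 for pse and 0.45 ± 0.12 for vir, with adjusted p values from limma of 0.221, 0.0576, 0.355 and 0.0565.

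No single species passed for arm, and a contrast added after these values were seen, the mean of the 4 sex effects, gave 0.34 ± 0.06 (adjusted p = 0.000398, limma). Over 32 alternatives this value lay between 0.29 and 0.38 with an adjusted p between 0.000197 and 0.00761. In the same contrast 9.19% of all genes were called, and arm was the only member called. Within the X-linked genes, as defined by the mel chromosome, arm was ordinary, at the 46.5 percentile of sex effects for mel, 67.4 for yak, 53.6 for pse and 62.5 for vir.

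Of 6 other X-linked genes of the pathways, 4 were called in that contrast, all higher in females. Of all genes 9.19% were called in it, and the share among all X-linked genes was not counted. Whether 4 of 6 is ordinary for the X is therefore not known. dsh, which encodes Dishevelled and acts between the Wingless receptor and Armadillo, was higher in females by 0.72 ± 0.06 (adjusted p = 7.5e-07, limma), and the Hedgehog pathway kinase gene fu by 0.46 ± 0.07 (adjusted p = 0.000203). In pse the sexes overlapped for fu, at 35.4 and 38.7 FPKM in females and 30.2 to 42.7 FPKM in males, and its effect there differed from the mean of the others by -0.53 ± 0.17 (adjusted p = 0.152). boi, a Hedgehog co-receptor gene, and por, needed to acylate Wingless, were higher by 0.49 ± 0.10 and 0.40 ± 0.12. The kinase genes sgg (0.17 ± 0.05, adjusted p = 0.054) and CkIalpha (0.12 ± 0.04, adjusted p = 0.123) did not pass. These 4 X-linked genes were the only ones called among the 16 measured Hedgehog and 15 measured Wingless pathway genes, and the medians of the lists were 0.03 and 0.07, against 0.02 over all genes.

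Individual embryos of the same sex and species differed in en, gsb and hh far more than in smo or arm. The residual SD on the log2 scale within groups was 0.55 for en, 0.51 for gsb and 0.42 for hh, at the 96.9, 96.2 and 92.7 percentiles of all 5856 genes. It was 0.13 for arm, 0.14 for smo and 0.16 for ptc, at the 11.01, 16.3 and 26.5 percentiles, and the median of all genes was 0.21. The members with large spread were also those with the lowest levels, and how much of the spread is counting error cannot be told without counts.

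The embryos with high en were those with high hh and gsb. Each embryo was expressed as its deviation from the mean of its sex and species group, and the deviations of en and hh correlated over the 22 embryos with Pearson's r = 0.83 and Spearman's rho = 0.79 (permutation p = 0.00073 and 0.00213, within groups, adjusted p = 0.0102 and 0.0199 over 28 pairs of members). For en and gsb r was 0.84 and rho 0.78 (permutation p = 0.00044 and 0.00114, adjusted p = 0.0102 and 0.016). ptc and nkd formed another such pair, with r = 0.78 and rho = 0.78 (permutation p = 0.00261 and 0.0011, adjusted p = 0.0244 and 0.016). Without the 2 embryos farthest from the median of en, r was 0.80 with hh and 0.81 with gsb. Without the 2 farthest from the median of ptc, r was 0.69 for ptc and nkd. No other pair passed in both measures, and ptc and gsb had r = -0.00387. In the groups of 2 embryos the deviations mirror each other by construction.

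**Figure D4:**
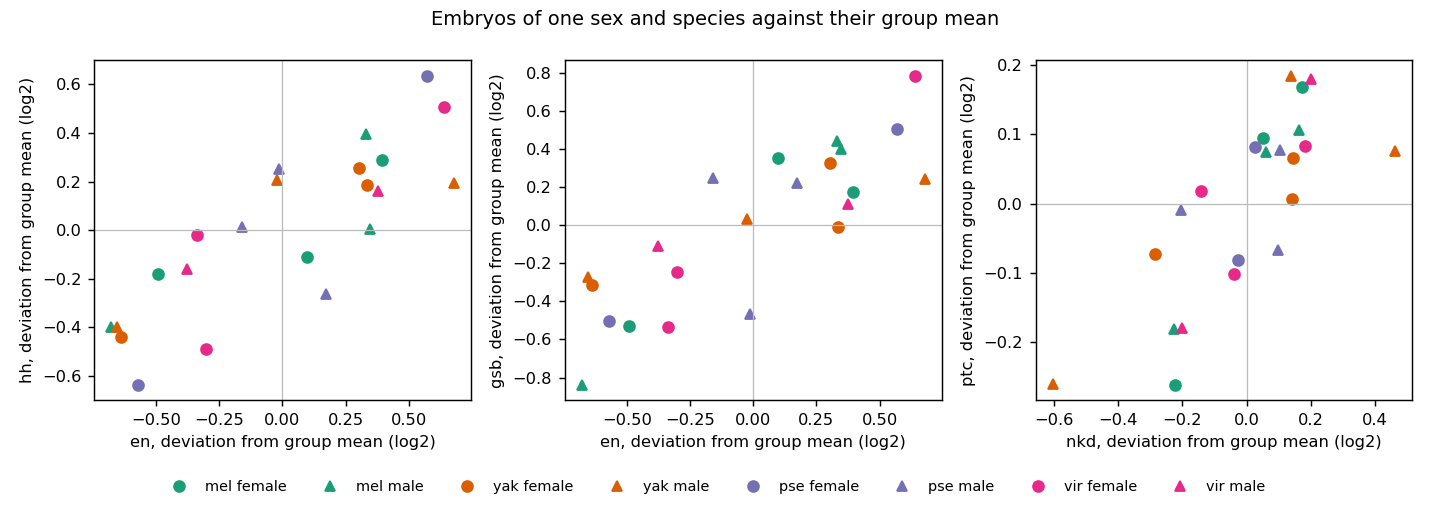
Each point is an embryo, plotted by the deviation of a segment polarity gene from the mean of its sex and species group on the log2 scale, for hh and gsb against en and for ptc against nkd, with species by colour, circles for females and triangles for males. Embryos lie along a rising line in all 3 panels, with r of 0.83, 0.84 and 0.78, and female 3 of vir and female 2 of pse lie at the upper right of the panels for en.

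Single embryos show the pattern in FPKM. Female 3 of vir, with 5.23 FPKM of en, 6.80 FPKM of gsb and 9.09 FPKM of hh, had the highest level among the 5 vir embryos of 6 members, namely these 3 and wg, ptc and arm. Female 2 of pse, with 4.91 FPKM of en, 19.9 FPKM of gsb and 5.57 FPKM of hh, was the highest pse embryo for these 3 and wg. In mel, female 3 and male 3 had the least en, at 3.05 and 3.50 FPKM, and the least gsb, at 6.33 and 6.35 FPKM.

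The same embryos lay at an end of the slam range of their species. It was at 172 FPKM in female 3 of vir against 237 to 263 FPKM in the other vir embryos, and at 25.05 FPKM in female 2 of pse against 36.2 to 78.4 FPKM in the others. In mel the highest slam levels, 47.5 and 45.3 FPKM, were those of female 3 and male 3. In yak the pattern was mixed. Female 2, with the most slam (87.9 FPKM), ranked 5 for en, 4 for gsb and 6 for hh of 6 embryos, where 1 is highest. Male 3, with the least slam (12.7 FPKM), ranked 4 for en, 5 for gsb and 1 for hh. Over the 22 embryos the deviation of slam had r = -0.72 and rho = -0.65 with that of en (permutation p = 0.00695 and 0.0165), r = -0.74 and rho = -0.74 with hh (p = 0.00171 and 0.00272, permutation) and r = -0.73 and rho = -0.72 with gsb (p = 0.00508 and 0.00513, permutation). slam was singled out after the values were seen, and over the 80 relations of the 10 measured early markers with the 8 members none of these passed, with adjusted p values of 0.111, 0.0684 and 0.111 for r and 0.168, 0.109 and 0.137 for rho. Without the 2 embryos farthest from the median of slam, r was -0.63 for en, -0.70 for hh and -0.63 for gsb. For bnk, r was -0.48 with en, -0.60 with hh and -0.33 with gsb, and for nullo -0.11, -0.03 and 0.20. The relation that passed in both measures was that of nkd with the pair-rule gene eve, at r = 0.79 and rho = 0.84 (permutation p = 0.00013 and 4e-05, adjusted p = 0.0104 and 0.0032 over the 80), and without the 2 embryos farthest from the median of eve r was 0.76.

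The genes whose levels were most like those of the members over all 29 libraries are given as a description, since eggs and embryos dominate such a correlation. For en these were hh (Pearson's r = 0.95) and the T-box gene mid (0.94), and for gsb they were mid (0.97) and Tace (0.96). For wg they were ec and ths, at 0.99 each, for nkd Ilp4 and the pair-rule gene run, at 0.996 each, and for ptc sog and CG10176, at 0.98 each. For hh they were FBgn0263256 and Srp54, at 0.97 each. The genes present in eggs were likest CG4849 and Smg5, at 0.99 and 0.98, for smo and Sema-2a and Mcm7, at 0.98 each, for arm.

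Of a further list of 10 segmentation and patterning genes, not all of them segment polarity genes, 7 were measured. Of these, 6 rose from egg to embryo in mel, yak and pse, and all 7 rose in vir, where 35.4 to 44.4% of all genes rose in the 4 species. They included odd, with a log2 difference of 6.84 ± 0.11 in mel, slp1, a forkhead gene that positions wg stripes (6.66 ± 0.17), and Doc1 (6.16 ± 0.51). lines (lin) was the exception, which fell in yak (-0.58 ± 0.14) and rose in vir (0.79 ± 0.14). The median of the 7 embryo differences between vir and mel was -0.93, against -0.07 over all genes, with 6 lower and 1 higher, where 81.2% of all genes were called in either direction. Of the pair-rule genes, 9 of 10 were measured, and 8 rose and 1, ftz-f1, fell in each species. The genes odd and slp1 are on both lists and are counted in each. The rise was largest for ftz in mel (7.54 ± 0.15), yak (7.11 ± 0.15) and pse (7.80 ± 0.21), and for opa in vir (6.90 ± 0.19).

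The shared components of the pathways moved in both directions between egg and embryo, as all genes did, of which 32% fell for mel, 33% for yak, 32% for pse and 27.2% for vir beside the 44.2%, 38.6%, 35.4% and 44.4% that rose. Of 16 measured Hedgehog pathway genes out of 20, 7 rose and 6 fell in mel, 8 rose and 5 fell in yak, 8 rose and 4 fell in pse, and 7 rose and 3 fell in vir. In mel, the largest changes were in botv (1.89 ± 0.10), which makes heparan sulfate chains, the glypican gene dally (1.81 ± 0.30) and rdx (-1.61 ± 0.12), an adaptor for Cubitus interruptus degradation. In vir they were dally (3.25 ± 0.31), the Hedgehog co-receptor gene ihog (2.97 ± 0.16) and Su(fu) (2.55 ± 0.17), whose product restrains Cubitus interruptus. In yak they were botv (2.32 ± 0.10), dally (1.85 ± 0.30) and cos (1.52 ± 0.13), and in pse boi (1.95 ± 0.26), gish (-1.28 ± 0.23) and Pka-C1 (1.23 ± 0.22).

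Of 15 measured Wingless pathway genes out of 24, 7 rose and 4 fell in mel, 6 rose and 6 fell in yak, 6 rose and 5 fell in pse, and 9 rose and 5 fell in vir. These counts, like those of the Hedgehog pathway, are to be read against the same shares of all genes. Apc, which belongs to the complex that destroys Armadillo, fell in all 4 species, with log2 differences of -2.73 ± 0.19 (mel), -2.38 ± 0.19 (yak), -3.48 ± 0.26 (pse) and -2.64 ± 0.20 (vir). dco, a casein kinase gene, fell too, with differences of -2.62 ± 0.14 (mel), -2.58 ± 0.14 (yak), -1.5 ± 0.19 (pse) and -0.89 ± 0.15 (vir). nmo, a kinase gene, rose by 2.43 ± 0.13 in yak and 2.28 ± 0.13 in vir, and Wnt2, which encodes another Wnt ligand, by 2.22 ± 0.30 in mel. wls, needed to secrete Wingless, rose by 2.18 ± 0.21 in pse.

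Apc2, the paralog of Apc, differed most between species. Its eggs had 45.1 and 50.7 FPKM in mel, 38.1 and 46.3 FPKM in yak and 34.3 FPKM in pse, but 0.483 and 0.798 FPKM in vir. Embryos of vir had 55.4 to 72.3 FPKM, those of mel 41.4 to 49.6 FPKM, those of yak 26.4 to 34.7 FPKM and those of pse 149 to 179 FPKM. The rise of 5.30 ± 0.12 on the log2 scale in vir exceeded the change in mel by 5.38 ± 0.16 (adjusted p = 6.43e-17, limma), and the change in pse was 2.22 ± 0.15. Apc and Apc2 are paralogs, so reads that fit both could have been split between them in the authors' quantification.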

How the data were processed

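mRNA-seq libraries of single embryos and eggs were used. The authors trimmed reads to a mean quality above 30, mapped them to transcripts with Bowtie2 allowing all hits, quantified transcripts with eXpress and added these up to gene levels. Transcript models were those of FlyBase release 5.39 for mel and previously published ones for yak, pse and vir. The deposited values are log10(normalized FPKM + 1), after the authors had set the 75th percentile of autosomal genes equal in all samples. Deposited tables with the 5 other normalizations were alternatives. Column names matched the sample titles, and 0 sample columns were left unmatched. Steps of single reads could not be recovered (the commonest ratio of low values held 10 to 22.5% of low genes), so no count test was run.

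Values were turned back to FPKM, tested as log2(FPKM + 1) for genes with a group mean above 1 FPKM in at least 1 group, by limma 3.58.1 (R 4.3.3) with a trend and Benjamini-Hochberg adjustment over all genes (threshold 0.05, two-sided, 95% intervals from the same fit), and fold changes of low genes are understated on this scale. Group means were fitted over 29 libraries for eggs (12 groups) and over 22 embryos otherwise. The 2 libraries that the study removed, a pse female and a vir male, were left out. Where a group had 1 sample, its spread was taken from the other groups. The procedure was tested on simulated data. Correlations used Python 3.11.15 and 100000 permutations within groups.

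Members and lists were chosen with earlier results of these data known. All members in the table are named. Of each other list, up to 3 genes per comparison with the largest change among those called are named, and for each member the 2 genes of highest Pearson's r. Apc2, dsh, fu, boi, por, slam, bnk, nullo, sgg, CkIalpha and Mkp3 values, the mean sex effect and the ptc value under each normalization were singled out after their values were seen. Of 123 list entries 85 were in the table, 3 of them matched by gene ID. The planned test of en less inv was not run.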

Additional observations from a re-analysis of the deposited data

Results flagged for a closer look

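The rise from egg to embryo differed between species, by the test of the difference itself, for 3 of the segment polarity genes. Of all genes, 47.0% were called in this test between yak and mel, 65.9% between vir and mel and 64.6% between vir and yak. smo rose more in yak than in mel, by 1.02 on the log2 scale, and the difference between vir and yak was -1.22. For wg the rise differed by -1.16 between vir and mel and by -0.79 between vir and yak. For gsb it differed by -1.65 between vir and mel and by -2.37 between vir and yak. All 7 eggs were listed at 0 for gsb, so its values are those of the embryos alone. For wg 5 of 7 eggs were listed at 0 and none exceeded 0.0341 FPKM, so its values are nearly those of the embryos alone. For smo the egg levels differed, with 2 eggs in each of the 3 species. Between yak and mel the embryo means of smo were alike, at 250 and 252 FPKM, so its value there is that of the eggs. Groups held 1 to 3 libraries each, too few to test a single library for standing apart.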

How the results depend on the processing

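Values of single members were followed where the main fit called them, and for the sex effects of arm and the nkd contrast of pse against the other species. Apart from settings that left out a library, 870 of these values kept their direction and their side of the threshold, 25 were no longer called, 4 were newly called and 1 changed sign. New calls of other members are not among these and show only in the counts of members called. The sign change was smo in eggs between vir and mel, at 0.0359 with the median normalization. The number of members called between the sexes became 1 in yak with the median normalization (arm), 0 in pse with the quantile normalization and with the removed libraries, and 1 in vir (arm) with TMM, with a pseudocount of 5 and with the removed libraries. Between embryos of pse and yak it became 3 with the quantile normalization. Between eggs of vir and mel it became 2 with the quantile normalization and with a pseudocount of 0.1, and between eggs of vir and yak 2 with the median and quantile normalizations and 3 with a pseudocount of 0.1. For the rise in vir against mel it became 5 with the median normalization and 4 with TMM, and for the rise in vir against yak 5 with the median normalization and with a pseudocount of 0.1. The cause was not tested.

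Leaving out each library in turn, the count of members called between the sexes in pse was 0 to 1, that for pse against the other species 0 to 1 (nkd, 1.00, without male 1 of yak), and that for the mean of the 4 species 1 to 2 (ptc was added without female 1 of mel). Between embryos it was 2 to 4 for yak and mel, 4 to 6 for pse and mel, 2 to 6 for pse and yak (2 without female 1 of pse), 5 to 7 for vir and mel, 5 to 6 for vir and yak and 5 to 6 for vir and pse. For the rise in vir it was 2 to 3 against mel and 2 to 5 against yak (2 without male 2 or egg 2 of vir, 5 without male 3 of vir). The single pse egg could not be left out, and a fit of the species apart gave no value for contrasts over all 4 species.

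Replicate numbers were not taken to pair the libraries, since in 5 of 10 pairs of a female and a male of 1 number the correlation of deviations exceeded 0.1 (-0.17 to 0.47) and in the others it did not, while 6 of 11 females were closest to the male of their own number. With the replicate number as a block, 8, 8, 7 and 8 members rose in mel, yak, pse and vir, where en in pse was at 1.57 (adjusted p = 0.051, limma), and 1 member was called between the sexes in pse (wg, while nkd was at 0.84 with an adjusted p of 0.155). No other count moved by over 1.5 times. The number of reads behind a value is unknown, which limits en, gsb and hh most.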
